A study of Mus musculus with 11 samples.

Results

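The 34 genes described here encode enzymes of cholesterol synthesis, the regulators that control them, and enzymes of fatty acid synthesis, elongation and desaturation. They were chosen by gene symbol from a table of 16228 genes, and all 34 were present and passed the filter on low values. Of these, 8 act in the mevalonate steps, 11 in the squalene and sterol steps or in sterol transport, 5 are regulators and 10 act on fatty acids. Expression had been measured by bulk RNA sequencing of cerebral cortex punches from mice at postnatal day 30, with 1 library per animal and 11 libraries in all.

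Prkci and Prkcz encode atypical protein kinases C, known for their part in cell polarity, and the study deleted either one with a Cre active in precursors of the myelin-forming oligodendrocytes. The groups were 4 controls, 4 mice labelled Ng2 Cre+ Prkci f/f (here Prkci cKO) and 3 mice labelled Ng2-Cre+ Prkcz f/f (here Prkcz cKO). Controls 1 and 2 were labelled Pkcz f/+ and controls 3 and 4 Pkcz f/f, with no Cre named and no treatment in any group. NG2 is a surface proteoglycan that oligodendrocyte precursors share with pericytes, so Ng2-Cre can act in both. Since neither Prkci-line controls nor Cre-carrying controls were analysed here, deletion and Cre cannot be told apart in comparisons with controls, nor, for Prkci cKO, can the line. The series design calls the replicates biological.

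Cholesterol does not cross the blood-brain barrier, so the brain makes its own from acetyl-CoA through mevalonate, squalene and lanosterol. The enzymes are switched on together by SREBP-2, the product of Srebf2, while SREBP-1, the product of Srebf1, acts more on fatty acid genes. SCAP carries both factors to the Golgi for activation when sterol is low, and the INSIG proteins hold SCAP back when sterol is high. Myelin is rich in cholesterol and long fatty acids, and oligodendrocytes and astrocytes both run these pathways.

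The sequence before the start site of 4 of the genes is shown because SREBP factors act there together with partner factors. Elovl5 is the member that passed the test, Cyp51 and Insig1 had the next smallest p-values in Prkci cKO, and Hmgcs1 held the only match to a sterol response element. RefSeq windows on GRCm38.p6 were matched for 27 of the 34 members, and the 250 bases before each start are used. Capitals mark matches, on either strand, to 4 motifs. The sterol response element was searched as TCACNCCAC. The E-box was searched as CACGTG. The GC box was searched as GGGCGG, and the CCAAT box by the letters of its name. No matches overlapped in the windows shown. The windows are chr9:77917115-77917364, plus strand, chr5:4104698-4104947, minus strand, chr5:28071162-28071411, plus strand and chr13:119690101-119690350, plus strand.
Elovl5: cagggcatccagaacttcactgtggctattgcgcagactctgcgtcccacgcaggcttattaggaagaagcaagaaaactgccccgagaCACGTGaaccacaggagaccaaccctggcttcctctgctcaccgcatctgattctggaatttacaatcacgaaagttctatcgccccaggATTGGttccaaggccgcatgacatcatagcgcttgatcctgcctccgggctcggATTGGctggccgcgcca
Cyp51: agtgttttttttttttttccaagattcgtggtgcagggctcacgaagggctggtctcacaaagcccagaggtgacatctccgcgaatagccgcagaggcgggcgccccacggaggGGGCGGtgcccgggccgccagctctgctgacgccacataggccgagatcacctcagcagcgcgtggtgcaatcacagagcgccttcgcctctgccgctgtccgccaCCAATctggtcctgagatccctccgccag
Insig1: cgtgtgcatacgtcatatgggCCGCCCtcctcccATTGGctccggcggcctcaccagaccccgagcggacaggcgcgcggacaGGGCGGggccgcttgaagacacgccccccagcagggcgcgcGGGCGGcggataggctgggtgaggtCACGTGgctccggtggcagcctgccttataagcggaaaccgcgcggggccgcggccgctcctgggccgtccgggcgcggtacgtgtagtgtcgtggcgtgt
Hmgcs1: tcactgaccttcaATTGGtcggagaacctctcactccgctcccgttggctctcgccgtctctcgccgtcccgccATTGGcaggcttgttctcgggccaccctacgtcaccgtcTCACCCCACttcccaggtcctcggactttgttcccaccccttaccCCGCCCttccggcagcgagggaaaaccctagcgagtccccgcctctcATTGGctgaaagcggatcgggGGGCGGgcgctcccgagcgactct

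Among 35 windows of the 27 members, 22 (62.9%) held a CCAAT box, against 33.8% of 32851 windows of all genes. A GC box was in 24 (68.6%) against 32.7%, an E-box in 6 (17.1%) against 6.02%, and the sterol response element in 1 (2.86%) against 1.05%. The E-box windows were those of Dhcr7, Elovl5, Hsd17b7, Insig1, Sc5d and Scap. These are matches of letters and were not tested as binding sites.

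Prkci itself was 65.0 to 68.3 in Prkci cKO against 85.3 to 90.7 in controls (log2 change -0.39, SE 0.0449, limma adjusted p = 9.84e-04, n = 4 each). Prkcz was 262 to 292 in Prkcz cKO against 298 to 347 in controls (log2 change -0.22, SE 0.0546, limma adjusted p = 0.0966, n = 3 against 4), which did not pass the threshold. Values are normalised expression, scaled by the authors to nearly equal library sums and not by gene length. Steps between low values gave a depth near 14800000 reads for Prkcz cKO 3, the shallowest library, and 20600000 to 28200000 for the rest. Mature oligodendrocyte markers (15 of 15 in the table, none at 0) summed to 5880 to 8840 in controls, 3110 to 5000 in Prkci cKO and 4210 to 4700 in Prkcz cKO. Astrocyte markers (10 of 10, none at 0) summed to 5990 to 6590, 6010 to 6810 and 4600 to 5810, and neuron markers (8 of 8, none at 0) to 9010 to 9250, 9000 to 9720 and 9360 to 9730. Striatum markers (8 of 9 in the table, none at 0) summed to 553 to 905, 259 to 507 and 539 to 1250.

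In control cortex the desaturase Scd2 had the highest level per kilobase of exon of the 34 genes, at 344 ± 34.8 (SD, n = 4). Hmgcs1, which makes HMG-CoA, followed at 94.8 ± 6.48, and the desaturase Fads1 at 47.3 ± 3.84. Acly (39.2 ± 0.995), which makes cytosolic acetyl-CoA, and Scd1 (38.0 ± 6.90) came next and did not differ beyond their spread. The next 27 genes ran from 30.2 ± 2.20 (Srebf2) down to 4.41 ± 0.380 (Stard4). Of the 33 neighbouring pairs in the whole order, 22 had overlapping SD ranges, and the gaps beyond SD included those at Fads1 to Acly, Elovl5 to Sqle to Elovl6, and Stard4 to Tm7sf2 to Lss. The lowest levels were those of Tm7sf2 (2.62 ± 0.106), a sterol reductase, and Lss (1.94 ± 0.343), which makes lanosterol. Lengths are the union of all annotated exons in GENCODE M21, so a gene with long retained-intron transcripts, such as Lss with 10787 bases, is given a low level per kilobase.

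**Figure D1:**
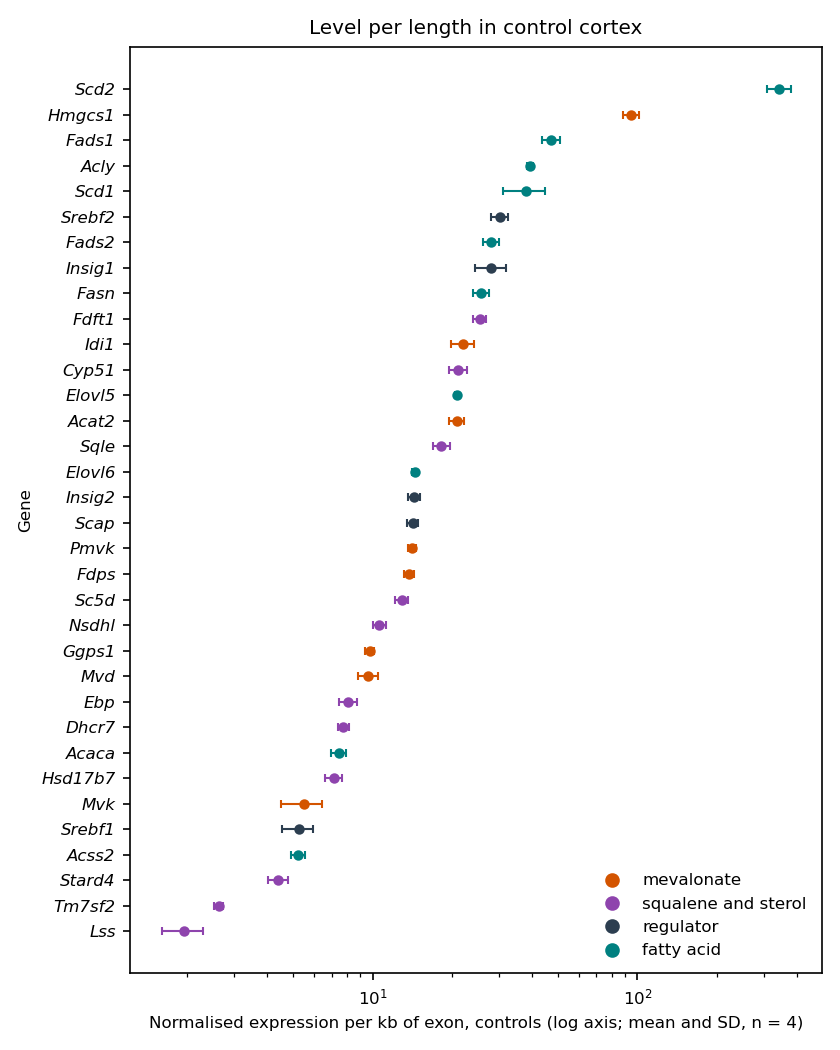
Level of each gene per kilobase of exon in the 4 controls (log axis; dots are means, bars SD), coloured by role. Scd2 stands at 344 and Lss at 1.94, and most other genes lie between 4.41 and 47.3.

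The members were not one block in the genome, lying on 16 chromosomes, but 5 were on chromosome 19: Scd1, Scd2, Fads1, Fads2 and Tm7sf2. Scd2 (chr19:44293674-44306864, GRCm38) and Scd1 (chr19:44394455-44407879) are 87.6 kb apart, and Fads1 and Fads2 81.1 kb apart. Per exon length, Scd2 was 9.16 ± 0.80 times Scd1 in controls, 9.45 ± 0.964 times in Prkci cKO (SD, n = 4 each) and 10.1 ± 0.332 times in Prkcz cKO (SD, n = 3). The ranges of the 3 groups overlapped. Scd1 and Scd2 are close paralogs. The submitters' notes name RSEM, which divides shared reads by estimate, but the shares given to Scd1 and Scd2 cannot be seen here. The same holds for Acat2 and its mouse paralog. For Fads1 over Fads2 the ratio was 1.68 ± 0.0446 in controls, 1.58 ± 0.0242 in Prkci cKO (SD, n = 4 each) and 1.64 ± 0.0406 in Prkcz cKO (SD, n = 3). The Prkci cKO range of 1.55 to 1.60 was below the control range of 1.65 to 1.75, but ratios were not tested. Neither gene passed in Prkci cKO, with log2 changes of 0.01 for Fads1 and 0.09 for Fads2 (limma adjusted p = 0.985 and 0.660). The ratios of Srebf2 over Srebf1 and of Insig1 over Insig2 overlapped between Prkci cKO and controls.

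**Figure D2:**
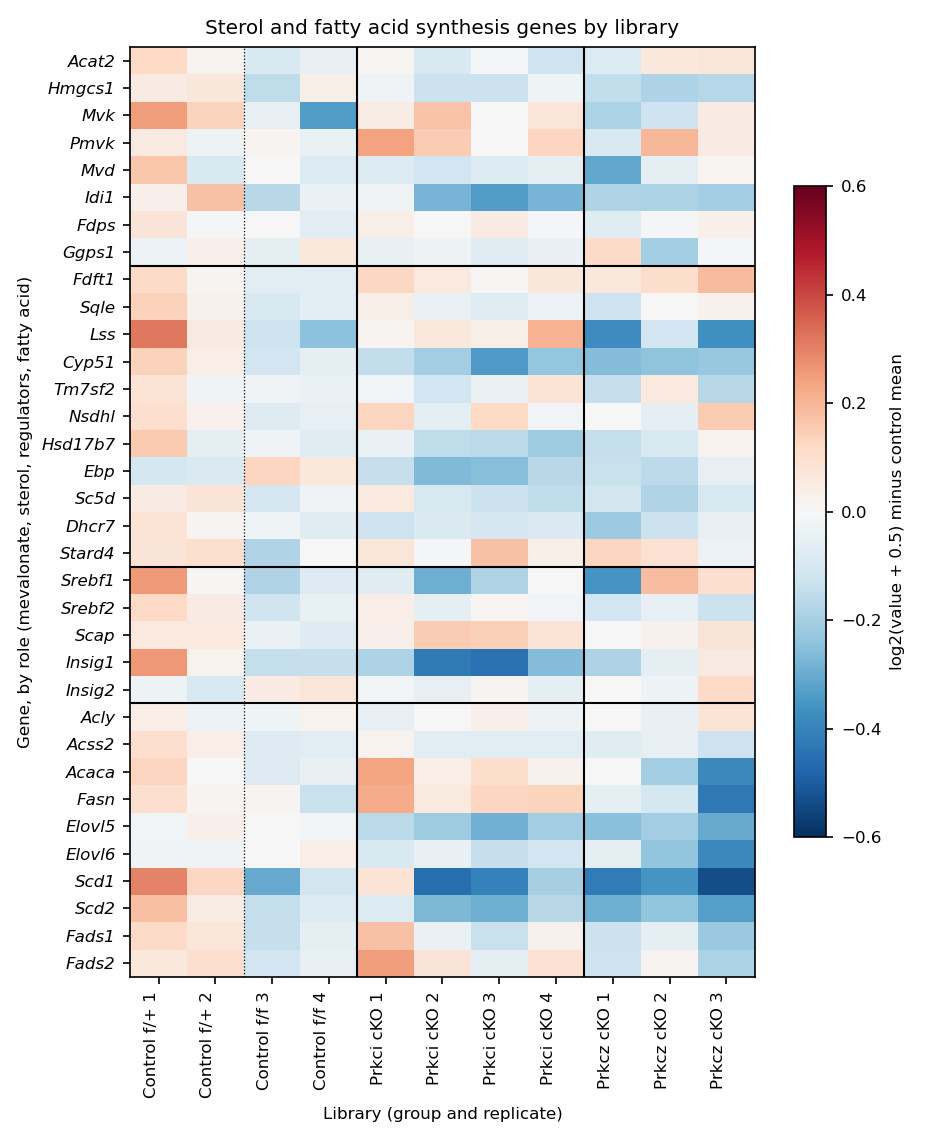
Each cell is the log2(value + 0.5) of a gene in a library minus the control mean of that gene (colour bar), with genes in rows by role and libraries in columns. The f/+ controls are mostly above the control mean and the f/f controls below it, Elovl5 is low in all 7 knockout libraries, and Scd1, Fasn, Acaca and Elovl6 are lowest in Prkcz cKO 3.

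The first comparison asked how the genes differed between Prkci cKO and controls. Of the 34 members 1 fell and none rose, against 1.51% of all 14330 genes tested that fell and 0.0977% that rose (1.61% in either direction). The member that fell was Elovl5 (chr9:77917364-77984519, GRCm38), the elongase of polyunsaturated fatty acids. The median log2 change was -0.035 over the members and 0.002 over all genes tested, and 22 of 34 members (64.7%) were below 0, against 49.1% of all genes. Without control 1 the members' median was -0.010, and without control 3 it was -0.063. At an unadjusted p under 0.05 there were 8 of 34 (23.5%), against 12.1% of all genes.

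Elovl5 was 72.7, 75.1, 73.2 and 72.7 in controls 1 to 4, 65.6, 63.2, 60.03 and 63.4 in Prkci cKO 1 to 4, and 61.7, 63.5 and 59.5 in Prkcz cKO 1 to 3. The controls lay close together, and all 7 knockout libraries were below every control. The log2 change was -0.22 in Prkci cKO (SE 0.0429, 95% interval -0.31 to -0.13, limma adjusted p = 0.0181, n = 4 each) and -0.25 in Prkcz cKO (SE 0.0464, interval -0.35 to -0.15, limma adjusted p = 0.0307, n = 3 against 4). Both comparisons use the same controls. The spread of Elovl5 among controls was 1.58% of its mean, the smallest of the 34 members, and the f/+ and f/f controls had means of 73.9 ± 1.73 and 73.0 ± 0.417 (SD, n = 2 each). The mature oligodendrocyte markers were also lower in every knockout library than in any control. So were the summed markers of newly formed oligodendrocytes (6 of 6 measured; 301 to 375 in controls, 190 to 249 in Prkci cKO and 184 to 199 in Prkcz cKO), oligodendrocyte precursors (5 of 5; 252 to 260, 200 to 228 and 177 to 207) and the immediate early genes of neuronal activity (515 to 1090, 388 to 465 and 277 to 444). In Prkci cKO 14 of 15 mature, 4 of 6 newly formed, 1 of 5 precursor and 6 of 7 immediate early genes were called lower, against 1.51% of all genes. In Prkcz cKO these counts were 4, 3, 1 and 7, against 0.621% of all genes. Gpr17 is in both the newly formed and the precursor list, so the counts and sums of these lists are not independent. The 6 endothelial markers summed to 168 to 185 in controls, to more in every Prkci cKO library (188 to 205) and to less in every Prkcz cKO library (136 to 143). Of the 6, 0 were called in Prkci cKO, and 2 were called lower and 0 higher in Prkcz cKO, against the shares of all genes just given. None of these markers was at 0 in every library. Their part in the Elovl5 result was not tested, and in bulk tissue fewer cells of a type and less RNA per cell cannot be told apart.

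The sizes for Elovl5 held while its call did not. With each library left out in turn, the log2 change lay between -0.24 and -0.20 in Prkci cKO and between -0.27 and -0.23 in Prkcz cKO. In Prkci cKO the limma adjusted p was 0.0582 without control 2, 0.0661 without Prkci cKO 2 and 0.0634 without Prkci cKO 3. In Prkcz cKO it was 0.0592, 0.0784 and 0.0562 without controls 1, 2 and 3, 0.0592, 0.0799 and 0.0961 without Prkcz cKO 1, 2 and 3, and 0.0547 without Prkci cKO 2, a library that enters only the shared spread.

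**Figure D3:**
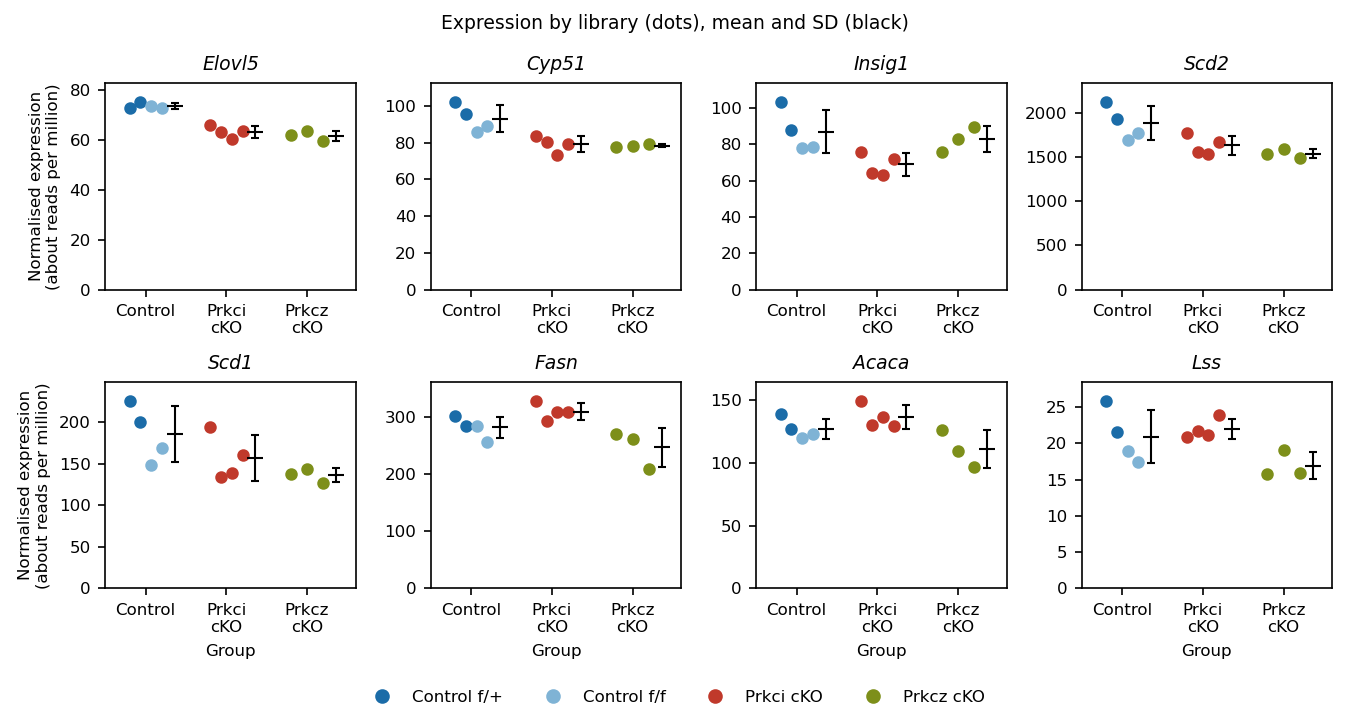
Normalised expression of 8 genes in each library (dots, coloured by group and control genotype), with the group mean and SD in black; all axes start at 0. Elovl5 and Cyp51 are lower in every knockout library than in any control, Insig1 only in Prkci cKO, and Fasn, Acaca and Lss are lower in every Prkcz cKO library than in any Prkci cKO library.

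Cyp51, the demethylase that acts on lanosterol, was 102, 95.5, 85.6 and 89.1 in controls 1 to 4, 83.7, 80.3, 73.3 and 79.1 in Prkci cKO 1 to 4, and 77.4, 78.4 and 79.2 in Prkcz cKO 1 to 3. All knockout libraries were below every control, but the log2 changes of -0.23 (SE 0.0579, limma adjusted p = 0.0660) and -0.24 (SE 0.0625, limma adjusted p = 0.0985) did not pass the threshold. Without control 3, the lowest control, the change in Prkci cKO was -0.27 and passed (limma adjusted p = 0.0388). It did not pass with any other library left out (limma adjusted p up to 0.167). Exons of Akap9 on the opposite strand overlap 3.8% of the Cyp51 exon length, and without knowledge of strand-aware counting their reads cannot be told apart. The same limit holds for members with larger opposite-strand overlaps, including Fdft1 (18.3%), Scap (13.2%), Hmgcs1 (12.1%) and Idi1 (9.2%).

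Of the 8 mevalonate genes, none passed in either comparison with controls. In Prkci cKO their log2 changes ran from -0.23 for Idi1, which makes dimethylallyl pyrophosphate, to 0.13 for Pmvk, the phosphomevalonate kinase. Idi1 was 76.6 ± 7.57 in controls, 65.3 ± 6.64 in Prkci cKO (SD, n = 4 each; limma adjusted p = 0.207) and 66.8 ± 0.591 in Prkcz cKO (SD, n = 3; log2 change -0.19, limma adjusted p = 0.292). Hmgcs1 was 436 ± 29.8, 413 ± 17.1 and 387 ± 5.26 in the same order, with log2 changes of -0.08 (limma adjusted p = 0.614) and -0.17 (limma adjusted p = 0.194). Acat2, the acetoacetyl-CoA thiolase, Mvd, the mevalonate decarboxylase, and Ggps1, the geranylgeranyl pyrophosphate synthase, had log2 changes of -0.05, -0.08 and -0.05 in Prkci cKO and 0.02, -0.12 and -0.03 in Prkcz cKO. For Fdps, the farnesyl pyrophosphate synthase, the 95% intervals were -0.08 to 0.12 in Prkci cKO and -0.12 to 0.09 in Prkcz cKO. Exons of Gm43738 on the same strand overlap 26.7% of the Fdps exon length, and the shares of reads that RSEM gave to each cannot be seen here.

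Among the 11 squalene and sterol genes, again none passed. The lowest change in Prkcz cKO was that of Lss, at 16.9 ± 1.85 against 20.9 ± 3.70 in controls (SD, n = 3 and 4; log2 change -0.29, limma adjusted p = 0.267), and in Prkci cKO it was 0.08 (limma adjusted p = 0.831). Beside Cyp51, Ebp, the sterol isomerase, had a log2 change of -0.21 in Prkci cKO (16.1 ± 0.732 against 18.7 ± 1.51, SD, n = 4 each; limma adjusted p = 0.209). It and Dhcr7, the last reductase of the pathway (-0.10, limma adjusted p = 0.467), were below every control in all 4 Prkci cKO libraries; in Prkcz cKO Dhcr7 had a log2 change of -0.13 (limma adjusted p = 0.278) and Ebp -0.11 (limma adjusted p = 0.486). Sqle, the squalene epoxidase and a rate-limiting step, was 101 ± 7.44 in controls, 98.9 ± 3.11 in Prkci cKO and 98.8 ± 5.44 in Prkcz cKO. Its log2 changes of -0.03 in each had 95% intervals of -0.15 to 0.09 and -0.16 to 0.10. Fdft1, the squalene synthase, was higher in the point estimate, with log2 changes of 0.07 and 0.12 (limma adjusted p = 0.662 and 0.320), and 18.3% of its exon length overlaps Ctsb on the opposite strand. Hsd17b7, a sterol ketoreductase, had log2 changes of -0.14 (limma adjusted p = 0.395) and -0.07 (limma adjusted p = 0.648), and Sc5d, the sterol desaturase, of -0.08 and -0.13 (limma adjusted p = 0.640 and 0.338). Nsdhl, a sterol dehydrogenase, Tm7sf2 and the sterol carrier Stard4 lay between -0.08 (Tm7sf2 in Prkcz cKO) and 0.07 (Stard4 in Prkci cKO). Exons of Vps51 on the same strand overlap 12.1% of the Tm7sf2 exon length.

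None of the 5 regulators passed in either comparison with controls. Insig1, which retains SCAP in the endoplasmic reticulum and is itself an SREBP target, was 103, 87.7, 78.1 and 78.3 in controls 1 to 4, 76.0, 64.2, 63.2 and 72.0 in Prkci cKO 1 to 4, and 75.9, 82.9 and 89.8 in Prkcz cKO 1 to 3. All 4 Prkci cKO libraries were below every control, while Prkcz cKO overlapped the controls. The log2 change of -0.33 in Prkci cKO did not pass (SE 0.0900, interval -0.52 to -0.13, limma adjusted p = 0.10), nor did that of -0.06 in Prkcz cKO (interval -0.27 to 0.15, limma adjusted p = 0.791). The difference between the knockouts was -0.27 (interval -0.47 to -0.06, limma adjusted p = 0.236).

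Insig2, the paralog of Insig1 with a like role, was 48.6, 46.7, 51.4 and 52.4 in controls 1 to 4, 49.1, 48.0, 50.2 and 47.9 in Prkci cKO 1 to 4, and 49.7, 48.6 and 53.9 in Prkcz cKO 1 to 3. Its log2 changes were -0.03 (interval -0.14 to 0.08) and 0.03 (interval -0.09 to 0.15), and the groups overlapped. Srebf2 was 235, 224, 199 and 209.8 in controls 1 to 4, 223, 209, 218 and 214 in Prkci cKO 1 to 4, and 200.3, 209.7 and 198 in Prkcz cKO 1 to 3, with the control range covering all but the lowest Prkcz cKO library. Its changes were under 0.01 in size in Prkci cKO (interval -0.11 to 0.11) and -0.10 in Prkcz cKO (interval -0.21 to 0.02).

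Srebf1 was 35.2, 29.5, 25.9 and 27.8 in controls 1 to 4, 27.9, 23.9, 25.9 and 29.5 in Prkci cKO 1 to 4, and 22.9, 33.5 and 31.6 in Prkcz cKO 1 to 3. Prkci cKO 2 and Prkcz cKO 1 were below every control, while the other knockout libraries were within the control range. The Srebf1 log2 changes of -0.14 (interval -0.39 to 0.12) and -0.02 (interval -0.30 to 0.25) were not resolved at this spread. Scap was 109.7, 109.8, 102 and 99.6 in controls 1 to 4, 108, 117, 116 and 112 in Prkci cKO 1 to 4, and 105, 107 and 111 in Prkcz cKO 1 to 3, with changes of 0.10 (limma adjusted p = 0.402) and 0.03 (limma adjusted p = 0.780).

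The second comparison, of Prkcz cKO with controls, again had 1 member that fell, Elovl5, and none that rose, against 0.621% of all genes that fell and 0.0279% that rose (0.649% in either direction). The median log2 change was -0.092 over members and -0.006 over all genes, and 26 of 34 members (76.5%) were below 0 against 51.8% of all genes. Without control 1 the members' median was -0.056. An unadjusted p under 0.05 was reached by 12 of 34 (35.3%), against 15.0% of all genes. The fatty acid genes had the lowest median of the 4 roles, -0.199, with 9 of 10 below 0.

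Scd2, the main brain form of the desaturase that makes monounsaturated fatty acids, was 2123, 1933, 1696 and 1768 in controls 1 to 4, 1769, 1556, 1530.1 and 1668 in Prkci cKO 1 to 4, and 1529.5, 1589.9 and 1491 in Prkcz cKO 1 to 3. All 3 Prkcz cKO libraries lay below every control, and the log2 change was -0.29 (SE 0.0764, limma adjusted p = 0.113); in Prkci cKO it was -0.20 with overlap (limma adjusted p = 0.238). Scd1 was 186 ± 33.8 in controls and 136 ± 8.41 in Prkcz cKO (SD, n = 4 and 3; log2 change -0.43, limma adjusted p = 0.169). Elovl6, which elongates saturated fatty acids, was 92.6 ± 1.89 against 79.4 ± 9.27 (log2 change -0.23, limma adjusted p = 0.137). It passed without Prkcz cKO 1 (-0.31, limma adjusted p = 0.0310), but not with any other library left out (limma adjusted p up to 0.421). The Prkcz cKO libraries lay wholly below the controls in 6 of 34 members (Elovl5, Elovl6, Scd1, Scd2, Idi1 and Cyp51) and wholly above in none, against 6.72% and 5.16% of all genes. In Prkci cKO 6 were lower (Elovl5, Elovl6, Cyp51, Ebp, Dhcr7 and Insig1) and none higher, against 5.32% and 3.18%.

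Prkcz cKO 3, the shallowest library, had the lowest fatty acid values except for Acly. It held the lowest value of its group in 9 of the 10 fatty acid genes, whereas it did so in 37.9% of all genes tested. Acly was 219 in it, against 207 and 201 in Prkcz cKO 1 and 2. In squalene and sterol genes it held the highest value of its group in 8 of 11, against 39.4% of all genes tested. The median of the 10 fatty acid genes relative to the control mean was -0.098, -0.157 and -0.314 in Prkcz cKO 1, 2 and 3. The astrocyte marker sum was 4600 in Prkcz cKO 3 against 5810 and 5740 in Prkcz cKO 1 and 2, all below the control range of 5990 to 6590. The striatum marker sum was 1250 in Prkcz cKO 3 against 539 and 571, and the part of these sums in the fatty acid values was not tested. Without this library the log2 changes against controls were -0.08 for Fasn, -0.11 for Acaca and -0.15 for Elovl6, in place of -0.20, -0.20 and -0.23.

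**Figure D4:**
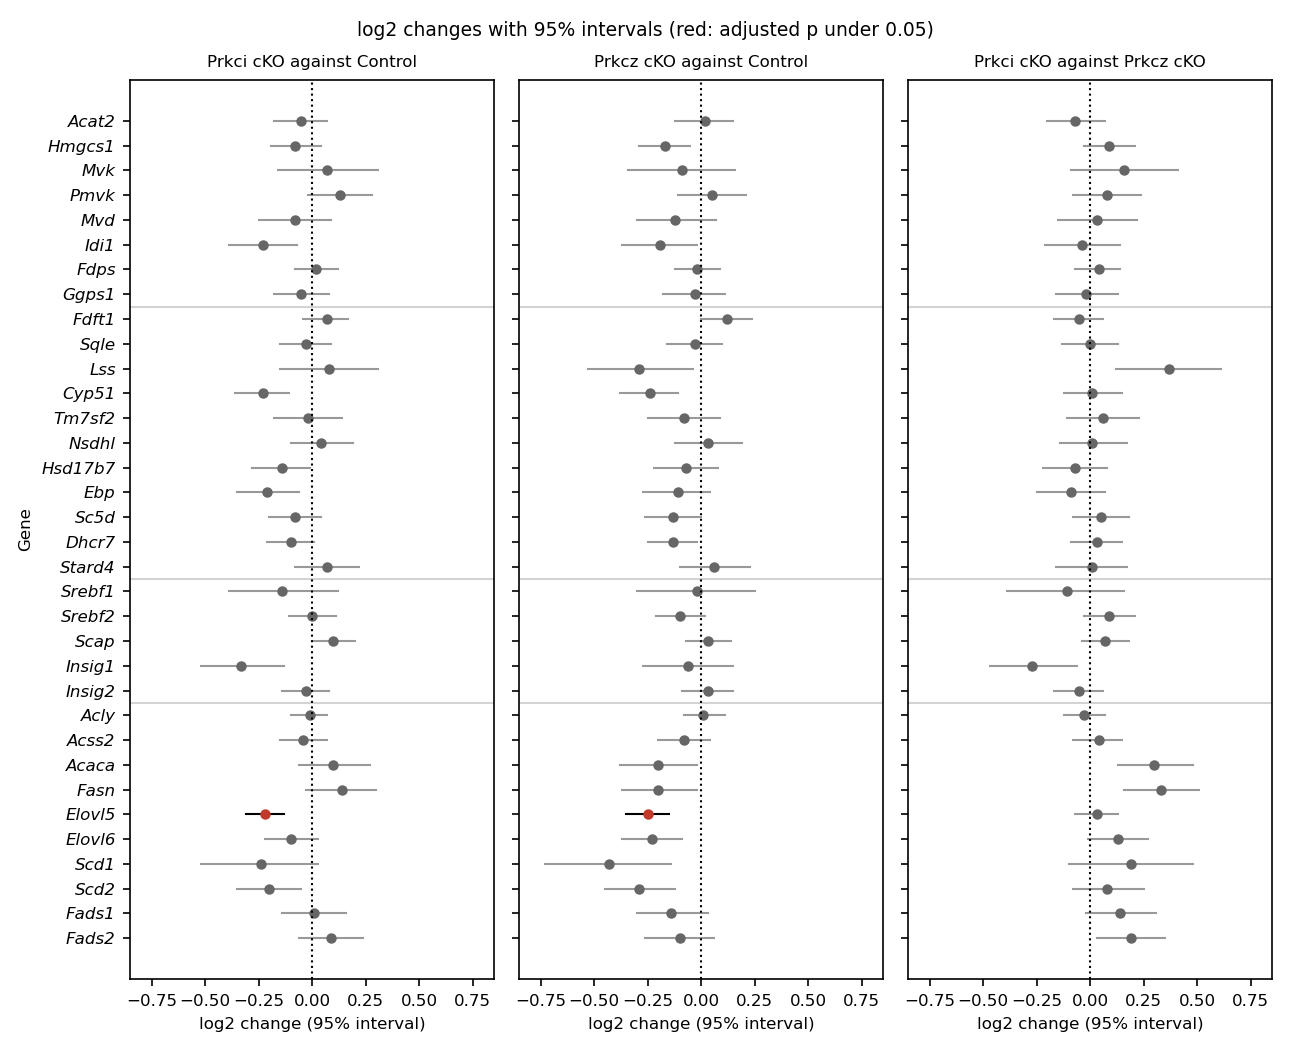
log2 change of each gene with its 95% interval in the 3 comparisons, in rows by role; red marks an adjusted p under 0.05. Elovl5 is the gene marked in both comparisons with controls, at -0.22 and -0.25, and none is marked between the knockouts.

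The third comparison set the knockouts against each other. No member passed in limma, where 0.300% of all genes did (0.237% higher and 0.0628% lower in Prkci cKO). At an unadjusted p under 0.05 there were 5 of 34 (14.7%), against 16.0% of all genes, a share near the background. Fasn, Acaca, Lss and Hmgcs1 were higher in every Prkci cKO library than in any Prkcz cKO library, and no member was lower in this way, against 7.36% and 6.43% of all genes.

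Fasn, the fatty acid synthase, was 301, 284, 285 and 257 in controls 1 to 4, 328, 293, 308 and 309 in Prkci cKO 1 to 4, and 271, 261 and 209 in Prkcz cKO 1 to 3. The control range reached into both knockout ranges, and the log2 difference between the knockouts was 0.33 (SE 0.0815, interval 0.16 to 0.51, limma adjusted p = 0.112). Acaca, the acetyl-CoA carboxylase that supplies malonyl-CoA to it, was 139, 127, 120.3 and 123 in controls 1 to 4, 149.7, 131, 137 and 129 in Prkci cKO 1 to 4, and 127, 109.9 and 97.0 in Prkcz cKO 1 to 3. Prkci cKO 1 was the highest library and Prkcz cKO 3 the lowest in both genes, and the difference for Acaca was 0.30 (SE 0.0821, interval 0.13 to 0.48, limma adjusted p = 0.148). Without Prkcz cKO 1 both differences were 0.40 and passed (limma adjusted p = 0.0464 for Fasn and 0.0380 for Acaca), whereas without Prkcz cKO 3 they were 0.22 and 0.21 (limma adjusted p = 0.361 and 0.531).

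Lss was 25.9, 21.5, 19.0 and 17.4 in controls 1 to 4, 20.9, 21.6, 21.2 and 24.0 in Prkci cKO 1 to 4, and 15.8, 19.1 and 15.9 in Prkcz cKO 1 to 3. The control range covered all Prkci cKO libraries and 1 of the Prkcz cKO libraries, and the log2 difference was 0.37 (SE 0.115, interval 0.12 to 0.61, limma adjusted p = 0.185). Acly and Acss2, which supply acetyl-CoA, overlapped between the groups: the interval of the knockout difference was -0.12 to 0.07 for Acly and -0.08 to 0.15 for Acss2. For Fads1 and Fads2, the delta-5 and delta-6 desaturases, the differences were 0.14 (limma adjusted p = 0.367) and 0.19 (limma adjusted p = 0.252).

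The controls were also compared by labelled genotype, a comparison added after seeing the data. The f/+ controls were above the f/f controls, with no overlap, in 22 of 34 members and below them in 3 (Ebp, Insig2 and Elovl6), against 24.0% and 23.2% of all genes. The median log2 difference, f/+ minus f/f, was 0.126 over the members and 0.001 over all genes tested. In a fit of 4 groups no member passed in limma (0.154% of all genes did, 0.0907% higher and 0.0628% lower in f/+), and 12 of 34 (35.3%) had an unadjusted p under 0.05, against 12.6% of all genes. With 2 libraries on each side, genotype and the individual animals cannot be told apart.

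Scd1 was 213 ± 18 in f/+ and 159 ± 14.4 in f/f controls (SD, n = 2 each; log2 difference 0.42, limma adjusted p = 0.283). Mvk, the mevalonate kinase, differed by 0.38 (limma adjusted p = 0.245), Lss by 0.37 (limma adjusted p = 0.258), Insig1 by 0.28 (limma adjusted p = 0.322) and Srebf2 by 0.17 (limma adjusted p = 0.286). Scd2 differed by 0.23 (limma adjusted p = 0.302) and Cyp51 by 0.18 (limma adjusted p = 0.328), while Elovl5 differed by 0.02 (limma adjusted p = 0.927). Control 1 held the highest control value in 23 of the 34 members, against 29.3% of all genes, and control 3 the lowest in 19, against 22.5%. The mature oligodendrocyte markers summed to 8840 and 7650 in the f/+ and 5880 and 6420 in the f/f controls, and their part in the difference was not tested.

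Measured from the f/f controls alone, the median log2 change of the members was 0.001 in Prkci cKO and -0.034 in Prkcz cKO, and no member passed. The log2 changes from these controls were -0.14 for Cyp51 (limma adjusted p = 0.275) and -0.19 for Insig1 (limma adjusted p = 0.319) in Prkci cKO. In Prkcz cKO they were -0.16 for Cyp51 (limma adjusted p = 0.308), -0.23 for Scd1 (limma adjusted p = 0.488) and -0.17 for Scd2 (limma adjusted p = 0.333). Measured from the f/+ controls alone, the members' median was -0.106 in Prkci cKO and -0.167 in Prkcz cKO. From these controls Cyp51 (-0.32, limma adjusted p = 0.0183) and Insig1 (-0.47, limma adjusted p = 0.0266) passed in Prkci cKO, and Cyp51 (-0.33, limma adjusted p = 0.0319), Scd1 (-0.64, limma adjusted p = 0.0425) and Scd2 (-0.40, limma adjusted p = 0.0319) in Prkcz cKO. Elovl5 was -0.21 and -0.24 from the f/f controls (limma adjusted p = 0.109 and 0.121) and -0.23 and -0.26 from the f/+ controls (limma adjusted p = 0.0726 and 0.0701). The f/+ alternative was chosen after seeing the data.

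**Figure D5:**
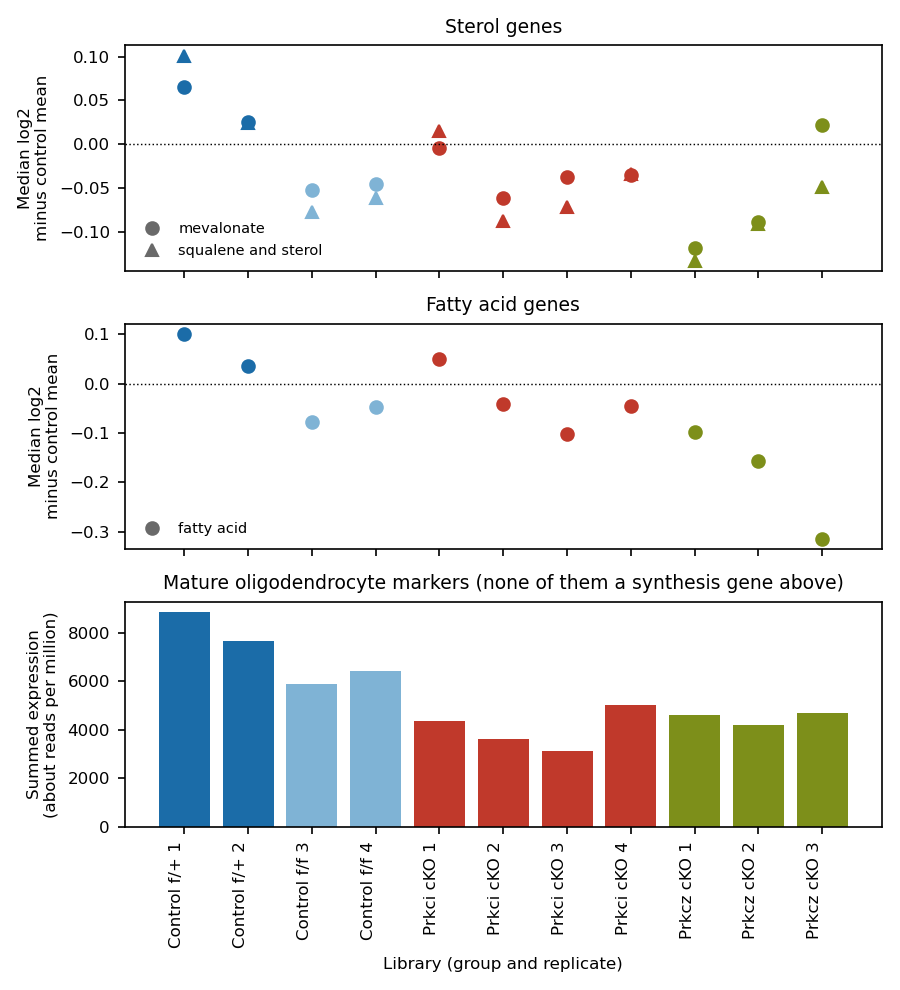
For each library, the median log2 difference from the control mean over the mevalonate genes (circles) and squalene and sterol genes (triangles) in the top panel and the fatty acid genes in the middle panel, with the summed mature oligodendrocyte markers as bars in the bottom panel. The f/+ controls are above 0 and the f/f controls below it in both upper panels, and Prkcz cKO 3 is lowest for fatty acid genes at -0.314.

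Other genes of these pathways were counted as 3 lists. Of 25 further genes of sterol synthesis and SREBP control none passed in limma, with medians of 0.001 in Prkci cKO, 0.024 in Prkcz cKO and -0.009 between the knockouts, and with 2, 2 and 4 genes at an unadjusted p under 0.05, or 8.0%, 8.0% and 16.0%, against 12.1%, 15.0% and 16.0% of all genes. Erlin1, which takes part in sterol-regulated protein degradation, was 23.4 ± 0.784 in Prkci cKO and 27.6 ± 2.18 in Prkcz cKO (SD, n = 4 and 3; log2 difference -0.23, limma adjusted p = 0.202), and Mbtps1, a protease that cleaves SREBP, differed by -0.16 (limma adjusted p = 0.255). Against controls, Cyb5r3, a reductase, had a log2 change of 0.14 in Prkci cKO (limma adjusted p = 0.254), and Dhdds, of dolichol synthesis, 0.10 in Prkcz cKO (limma adjusted p = 0.315).

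Of 25 tested genes of sterol uptake, transport and efflux none passed in limma, with medians of -0.023, -0.124 and 0.008 in the same order and 4, 4 and 5 genes of the 25 at an unadjusted p under 0.05, to be read against the shares of all genes given above. Abca2, a lipid transporter of oligodendrocytes, had a log2 change of -0.26 in Prkcz cKO (251 ± 19.5 against 301 ± 33.6, SD, n = 3 and 4; limma adjusted p = 0.151), and Lipa, the lysosomal acid lipase, -0.19 (limma adjusted p = 0.204). Npc2, a lysosomal cholesterol carrier, had -0.17 in Prkci cKO (limma adjusted p = 0.238). Lrp8, an apolipoprotein E receptor, and Soat1, which esterifies cholesterol, differed by 0.27 and 0.26 between the knockouts (limma adjusted p = 0.134 and 0.253).

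Of 30 tested genes of fatty acid synthesis and activation 1 fell in Prkci cKO, where 1.51% of all genes did, and none passed elsewhere. The medians were -0.049, -0.036 and -0.042, and 5 genes (16.7%) had an unadjusted p under 0.05 in each comparison, against 12.1%, 15.0% and 16.0% of all genes. The gene that fell was Acsl3, an acyl-CoA synthetase, at 195 ± 3.96 against 223 ± 7.67 (SD, n = 4 each; log2 change -0.19, SE 0.0403, limma adjusted p = 0.0267). Ptpla, an older symbol of Hacd1, had -0.30 in Prkci cKO (limma adjusted p = 0.174). Mcat, the mitochondrial malonyl transferase, had a log2 change of 0.30 in Prkcz cKO (limma adjusted p = 0.113), and Fabp7, a fatty acid binding protein of astrocytes, -0.33 (limma adjusted p = 0.154). Between the knockouts, Mcat differed by -0.25 (limma adjusted p = 0.203) and Gpam, which starts glycerolipid synthesis, by 0.20 (limma adjusted p = 0.232).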

How the data were processed

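The submitters' processing notes name FastQC, Trim Galore, STAR, RSEM and edgeR with GRCm38, without versions. The authors deposited 1 normalised expression signal per gene and library, and these summed to 1021767 to 1082562 per library. Low values (under 0.5) fell within 0.005 of a whole multiple of 1 step in 86.3% to 89.8% of cases; this gave relative depth but too few whole reads for a count test.

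The 14330 genes (of 16228) that reached 1 in 3 or more libraries were tested as log2(value + 0.5), which understates changes of low genes. One fit of all 11 libraries by group used limma 3.58.1 in R 4.3.3 with a variance trend and 8 residual degrees of freedom. Tests were two-sided, Benjamini-Hochberg adjusted over all genes tested, with a threshold of 0.05. The fit was also run on simulated data, with changes larger than those of Elovl5, so recovery of changes as small as those was not tested. Replicates correlated at 0.992 to 0.996 (log scale) and held at most 0.335% identical values.

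The members, roles and lists were chosen with earlier results of these data known. Every library's value is given for members past the threshold, those with the 3 smallest p-values per comparison, and regulators; from other lists, genes past the threshold and the 2 smallest p-values per comparison are named. Certain genes under this rule are not reported here. Exon lengths and gene positions are from GENCODE M21 (GRCm38). Alternatives changed the pseudocount, filter, scaling, variance model, weights, libraries, controls and a replicate block; the f/+ controls alone and the fit of 4 groups were added after seeing the data.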

Additional observations from a re-analysis of the deposited data

Results flagged for a closer look

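By Dixon's criterion, 4 member values stood apart from the other libraries of their group, among 68 groups of 4 libraries; chance marks about 1 in 20. Hmgcs1 was 391.35 in control 3, against 445.49 to 455.8 in the other controls. Idi1 was 75.15 in Prkci cKO 1, against 60.43 to 62.92 in the other Prkci cKO libraries. Tm7sf2 was 12.25 in control 1, against 11.23 to 11.37. Acss2 was 53.82 in Prkci cKO 1, against 50.54 to 50.82.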

How the results depend on the processing

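In Prkci cKO, where 1 member was called, the count was 0 with the f/f controls alone, 2 with the f/+ controls alone, and 0 to 2 with each library left out. In Prkcz cKO, also with 1, it was 3 with the f/+ controls alone and 0 to 1 with each library left out. It was 0 there with equal sums without Rn45s, no variance trend, a fit of the 2 groups only, the f/f controls alone or the replicate block; without Prkcz cKO 1 the member called was Elovl6. Between the knockouts it was 0 to 2 with each library left out. The members' median moved to -0.106 in Prkci cKO and -0.167 in Prkcz cKO with the f/+ controls alone, and to -0.034 in Prkcz cKO with the f/f controls alone; the cause was not tested. With each library left out, it ranged from -0.063 to -0.010 in Prkci cKO and from -0.113 to -0.056 in Prkcz cKO.

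The labels do not say that a replicate number marks a shared animal, litter or day, and whether the numbers pair the libraries is not settled. Correlations of same-numbered libraries ran from -0.186 to 0.196, 5 of 10 were over 0.1, and 12 of 20 checks favoured a library's own number. Each check chose among all 3 or 4 libraries of another group, so chance would favour the own number in a minority of checks. With the replicate block, Elovl5 was -0.22 in Prkci cKO (limma adjusted p = 0.0327) and -0.25 in Prkcz cKO (limma adjusted p = 0.0629), and 1 member, Acaca, was called between the knockouts (0.32, limma adjusted p = 0.0393).

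Over all genes, the 230 calls in Prkci cKO became 132 with the f/f controls, 346 with array weights, and 148, 95 and 349 without Prkci cKO 1, Prkci cKO 2 and Prkcz cKO 3. The 93 in Prkcz cKO became 59 with the f/f controls, 29 with 2 groups fitted, 30 with no variance trend, 27 and 50 without controls 1 and 2, 52 and 48 without Prkci cKO 1 and 2, and 13 without Prkcz cKO 2 and also without Prkcz cKO 3. The 43 between the knockouts became 112 with array weights, 73 with the replicate block, 10, 14 and 19 without Prkci cKO 1, 2 and 4, and 152 and 16 without Prkcz cKO 1 and 3.

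Across single members and settings, 2169 values kept their direction and side of the threshold, most of them called in neither fit, and 18 lost a call. The lost calls were those of Elovl5, in 5 of 23 alternatives in Prkci cKO and in 13 of 23 in Prkcz cKO. A further 10 values gained a call and 81 changed sign, and the values that changed sign were called in neither fit. In Prkci cKO with array weights, the values were 0.01 for Srebf2. In Prkcz cKO with array weights, the values were 0.00 for Nsdhl, 0.06 for Srebf1, -0.01 for Insig2 and -0.01 for Acly. In the difference between the knockouts with array weights, the values were 0.05 for Ggps1, -0.04 for Stard4 and 0.00 for Acly. In Prkci cKO with the f/f controls alone, the values were 0.02 for Acat2, 0.05 for Sqle, 0.01 for Tm7sf2, 0.08 for Srebf2 and 0.03 for Acss2. In Prkcz cKO with the f/f controls alone, the values were 0.10 for Mvk, 0.01 for Fdps, 0.05 for Sqle, 0.11 for Srebf1, 0.08 for Insig1 and -0.03 for Insig2. In Prkci cKO with the f/+ controls alone, the values were -0.12 for Mvk, -0.01 for Fdps, -0.10 for Lss, -0.02 for Nsdhl, -0.02 for Stard4, 0.03 for Insig2 and -0.09 for Fads1. In Prkcz cKO with the f/+ controls alone, the values were -0.05 for Acat2, -0.03 for Nsdhl, -0.03 for Stard4 and -0.03 for Scap. In Prkcz cKO with equal sums without Rn45s, the values were 0.01 for Fdps and 0.00 for Srebf1. In the difference between the knockouts with equal sums without Rn45s, the values were -0.02 for Sqle, -0.01 for Cyp51, -0.01 for Nsdhl and -0.02 for Stard4. In Prkcz cKO with the replicate block, the values were 0.00 for Acat2. With each library left out in turn, the range in Prkci cKO was -0.06 to 0.02 for Sqle, -0.06 to 0.01 for Tm7sf2, -0.04 to 0.03 for Srebf2, -0.03 to 0.00 for Acly, -0.05 to 0.05 for Fads1, -0.04 to 0.16 for Mvk, 0.00 to 0.04 for Fdps and 0.00 to 0.18 for Lss. With each library left out in turn, the range in Prkcz cKO was -0.04 to 0.01 for Fdps, -0.06 to 0.02 for Sqle, -0.13 to 0.14 for Srebf1, -0.12 to 0.02 for Insig1, -0.02 to 0.06 for Insig2, -0.02 to 0.04 for Acly, -0.01 to 0.07 for Acat2, -0.02 to 0.12 for Pmvk, -0.11 to 0.05 for Ggps1 and -0.03 to 0.08 for Nsdhl. With each library left out in turn, the range in the difference between the knockouts was -0.04 to 0.03 for Sqle, -0.01 to 0.05 for Cyp51, -0.03 to 0.07 for Nsdhl, -0.04 to 0.04 for Stard4, -0.06 to 0.10 for Mvd, -0.10 to 0.06 for Ggps1, -0.01 to 0.07 for Dhcr7 and -0.05 to 0.01 for Acly. The small groups limit what changes of this size can be resolved.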
